A study of Mus musculus with 8 samples.

Results

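The mitochondrial ribosomal protein genes were the gene symbols of the deposited expression table that began with Mrpl or Mrps followed by a number and at most 1 letter. There were 77 of them among the 11234 genes listed, 48 Mrpl genes named for the large subunit and 29 Mrps genes named for the small subunit. Their proteins are made in the cytosol and imported into mitochondria, where they assemble with 2 ribosomal RNAs of the mitochondrial genome. The resulting ribosome translates only the proteins that mitochondrial DNA encodes, all of them parts of the respiratory chain and ATP synthase. Brown fat is dense in mitochondria, and the uncoupling protein Ucp1 lets their respiratory chain run to make heat.

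The tissue was interscapular brown fat of male C57BL/6 mice aged 12 weeks, kept for 2 weeks at 29 °C, which is near thermoneutrality for mice, and killed at 5 PM (Zeitgeber time 10). The 4 control libraries came from mice with floxed Hdac3 alleles, and the 4 knockout libraries came from mice that carried Adiponectin-Cre as well as the floxed alleles. Hdac3 is a histone deacetylase that acts within nuclear receptor corepressor complexes. The adiponectin promoter drives Cre in adipocytes, whereas the RNA came from the whole tissue with all of its cell types. In such bulk samples, fewer cells of a type and less RNA per cell cannot be told apart. The labels do not say that each library was a separate animal, and the p-values therefore speak only of the spread among the libraries.

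Hdac3 itself had 7.64 ± 0.511 RPKM in controls and 3.29 ± 0.588 RPKM in knockouts (SD, n = 4 each), 43.0% of the control level. This difference passed the test (log2 fold change -1.02, limma adjusted p = 4.33e-05). The exact two-sided permutation test over the 8 libraries gave p = 0.0286, the smallest that its 70 splits allow. RPKM is reads per gene, divided by the length of the gene model and by the library's total reads, so levels can be compared between genes. All levels here were also scaled between libraries by the trimmed mean of M-values (TMM), and each log2 fold change is of knockout over control on log2(TMM-scaled RPKM + 1), which understates the change of low genes. The threshold was a Benjamini-Hochberg adjusted p of 0.05 over the 8764 genes whose mean RPKM was 1 or more, and all 77 mitochondrial ribosomal protein genes were among them. Library totals ran from 13619308 to 17986134 reads, of which 2738477 to 4170691 fell on listed genes. The mitochondrial ribosomal protein genes held 10626 to 15249 of these reads per library, and a single gene held between 33 and 546.

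The sequences just upstream of the start sites are shown here, for the 2 genes with the largest rises and the 2 with the largest falls on the log2 scale. Each is the 250 bases before the RefSeq start on the gene's own strand, from GRCm38.p6. Mrps18b lies at chr17:35916441-35916690 on the minus strand and Mrps7 at chr11:115603890-115604139 on the plus strand. The Mrps36 sequence is chr13:100744660-100744909 on the minus strand, and that of Mrpl34 is chr8:71464676-71464925 on the plus strand. Capitals mark a match to a motif searched for: an NRF1 motif read on the opposite strand in Mrps18b, at -224 to -216 from the start, and an ETS motif in Mrpl34, at -37 to -31.
Mrps18b: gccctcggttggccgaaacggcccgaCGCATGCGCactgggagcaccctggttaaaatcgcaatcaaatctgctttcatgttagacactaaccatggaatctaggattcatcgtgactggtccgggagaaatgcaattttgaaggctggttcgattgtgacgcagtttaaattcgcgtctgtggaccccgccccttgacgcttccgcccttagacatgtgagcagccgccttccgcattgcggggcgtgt
Mrps7: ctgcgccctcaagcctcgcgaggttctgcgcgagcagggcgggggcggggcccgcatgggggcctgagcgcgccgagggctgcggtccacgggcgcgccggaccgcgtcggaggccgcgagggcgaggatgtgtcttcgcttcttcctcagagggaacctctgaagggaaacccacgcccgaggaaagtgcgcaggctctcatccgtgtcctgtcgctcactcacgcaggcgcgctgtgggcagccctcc
Mrps36: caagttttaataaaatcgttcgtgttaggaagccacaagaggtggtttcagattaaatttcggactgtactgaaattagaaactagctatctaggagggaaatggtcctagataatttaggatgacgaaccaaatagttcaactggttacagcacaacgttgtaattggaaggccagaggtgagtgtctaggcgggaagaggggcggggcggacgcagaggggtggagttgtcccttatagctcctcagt
Mrpl34: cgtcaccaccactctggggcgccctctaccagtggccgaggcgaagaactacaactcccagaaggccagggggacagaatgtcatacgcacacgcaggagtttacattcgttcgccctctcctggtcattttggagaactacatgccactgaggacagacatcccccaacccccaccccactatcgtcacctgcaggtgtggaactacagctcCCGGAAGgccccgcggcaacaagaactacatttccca

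In knockout brown fat some mitochondrial ribosomal protein genes rose and others fell, in both subunits. Of the 77 genes, 12 were higher and 15 were lower in the knockout, and 50 did not pass the test. Among all genes tested 19.4% were higher and 15.9% lower (35.3% either way), so the shares of the mitochondrial ribosomal protein genes, 15.6% and 19.5%, were near the background. The median log2 fold change was -0.05 over the 77 genes and 0.01 over all genes tested. The changes were also of ordinary size, with a median absolute log2 fold change of 0.18 against 0.17 over all genes tested, and 53 of the 77 genes lay within 0.25 of no change. In the authors' deposited table, the false discovery rate was below 0.05 with a higher knockout level for 12 of the 77 genes and with a lower one for 15, against 17.0% and 16.6% of all listed genes (33.6% either way). The limma fit and the authors' deposited table shared 26 of these calls and differed at Mrpl11, lower in the deposited table alone, and Mrps22, lower in limma alone.

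**Figure D1:**
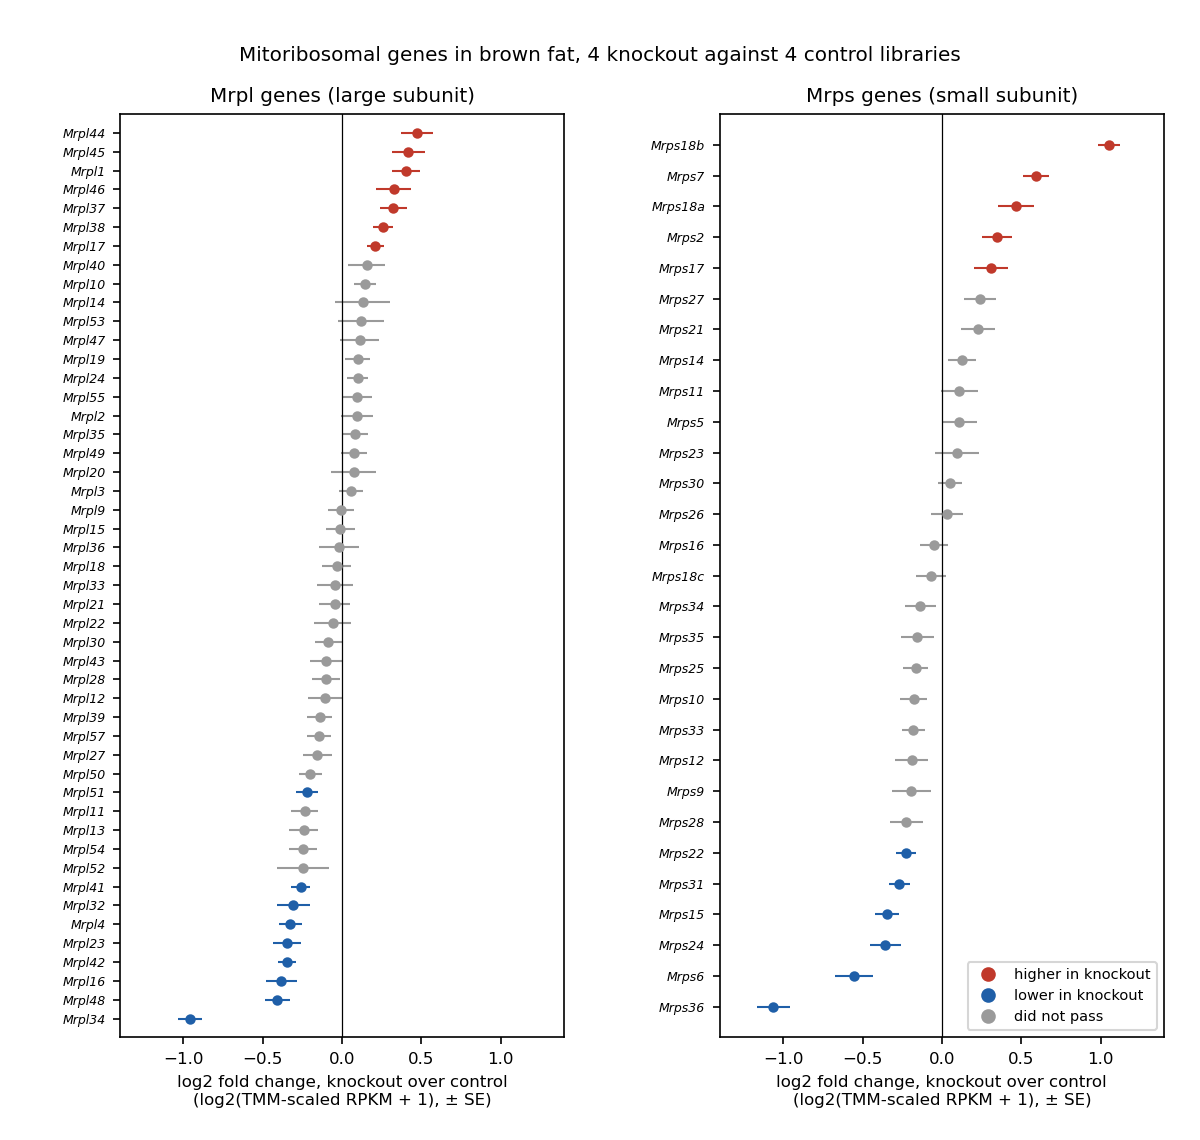
Log2 fold change of knockout over control, with its standard error, for the 48 Mrpl genes (left) and the 29 Mrps genes (right), from 4 libraries per genotype; red points were higher, blue points lower, and grey points did not pass the limma test. Both panels hold genes on either side of 0, with Mrps18b at 1.05, Mrps36 at -1.06 and Mrpl34 at -0.96 standing farthest out.

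The largest rise and the largest fall by log2 fold change were those of 2 genes named Mrps. Mrps18b had 10.4, 10.01, 8.92 and 10.5 TMM-scaled RPKM in the control libraries and 22.2, 21.6, 22.0 and 20.8 in the knockout libraries. The libraries of each genotype lay close together, and every knockout library was far above every control library. Its mean rose from 9.94 ± 0.708 to 21.7 ± 0.649 RPKM (SD, n = 4 each), 218% of control (log2 fold change 1.05 ± 0.068 SE, limma adjusted p = 4.63e-06), which ranked 37 by p among the 8764 genes tested.

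The product of Mrps18b is 1 of 3 mammalian relatives of bacterial ribosomal protein S18. The second relative, Mrps18a, had 10.6, 12.3, 9.46 and 11.4 RPKM in controls and 14.9, 15.7, 18.8 and 12.9 RPKM in knockouts. The genotypes did not overlap, although the lowest knockout library was only just above the highest control library. Mrps18a rose from 10.9 ± 1.19 to 15.6 ± 2.47 RPKM (SD, n = 4 each; log2 fold change 0.47 ± 0.11 SE, limma adjusted p = 0.00926). In structures of the human ribosome the Mrps18a product sits in the large subunit in spite of its name. The third relative, Mrps18c, did not pass the test, with 11.7 ± 1.46 RPKM in controls and 11.1 ± 1.06 RPKM in knockouts (SD, n = 4 each; limma adjusted p = 0.622). The differences between the 3 fold changes were not tested.

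Mrps7 encodes the relative of bacterial S7, a protein of the head of the small subunit that binds its ribosomal RNA. Its level was 12.3, 12.1, 12.0 and 12.8 RPKM in controls and 20.1, 18.3, 21.3 and 16.8 RPKM in knockouts. The control libraries hardly varied, and the knockout libraries were more spread but all higher. Mrps7 rose from 12.3 ± 0.363 to 19.1 ± 2.00 RPKM (SD, n = 4 each; log2 fold change 0.59 ± 0.079 SE, limma adjusted p = 0.000334). The other Mrps genes that were higher were Mrps2 and Mrps17, the relatives of bacterial S2 and S17.

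Mrps36 was the Mrps gene that fell most, from 26.8, 30.6, 23.4 and 27.1 RPKM in the control libraries to 10.6, 14.6, 12.8 and 11.7 RPKM in the knockout libraries. The highest knockout library was well below the lowest control library. Its mean fell from 27.0 ± 2.94 to 12.4 ± 1.70 RPKM (SD, n = 4 each), 46.1% of control (log2 fold change -1.06 ± 0.11 SE, limma adjusted p = 5.43e-05). The Mrps36 product was first listed as a ribosomal protein and is now assigned to the 2-oxoglutarate dehydrogenase complex of the citric acid cycle.

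Mrps6, the relative of bacterial S6, had 6.06, 6.21, 5.79 and 7.94 RPKM in controls and 3.63, 5.32, 3.47 and 4.10 RPKM in knockouts. The gap between the genotypes was narrow, since 1 knockout library came close to the lower control libraries. Its mean fell from 6.50 ± 0.976 to 4.13 ± 0.838 RPKM (SD, n = 4 each; log2 fold change -0.55 ± 0.12 SE, limma adjusted p = 0.00576). Mrps15, the relative of bacterial S15, fell less, from 10.9 ± 0.888 to 8.38 ± 0.558 RPKM (SD, n = 4 each; limma adjusted p = 0.00590). Mrps22, Mrps24 and Mrps31 were the other Mrps genes that were lower. In all, 5 of the 29 Mrps genes were higher and 6 lower, or 17.2% and 20.7% beside 19.4% and 15.9% of all genes tested, and their median log2 fold change was -0.07. These counts go by the gene names and so include Mrps18a and Mrps36. Whether the products of all other Mrps genes sit in the small subunit was not examined.

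**Figure D2:**
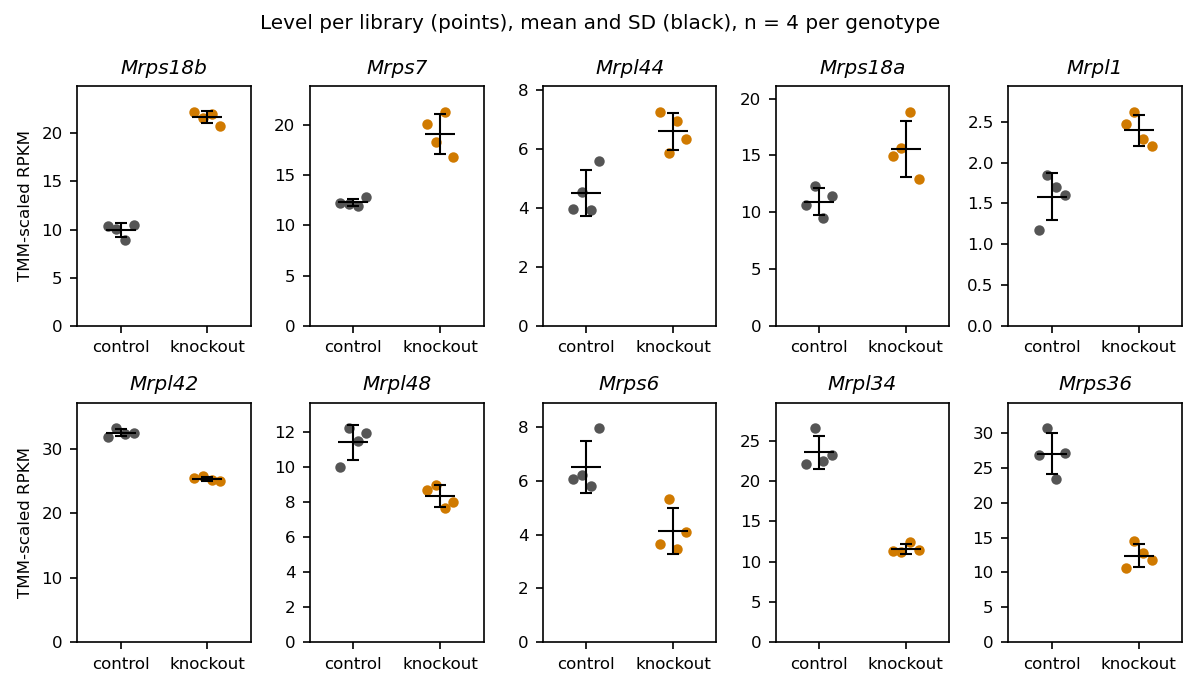
TMM-scaled RPKM in each library (points) for 10 mitochondrial ribosomal protein genes, with the mean and SD in black and n = 4 libraries per genotype; each panel has its own axis from 0. Control and knockout libraries do not overlap in any panel, from Mrps18b (9.94 against 21.7 RPKM) to Mrps36 (27.0 against 12.4 RPKM).

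Among the Mrpl genes, Mrpl34 stood apart. It encodes the relative of bacterial L34, a small protein buried in the ribosomal RNA. Its level was 22.1, 26.5, 22.4 and 23.2 RPKM in controls and 11.4, 11.1, 12.5 and 11.4 RPKM in knockouts. The knockout libraries were nearly alike and all far below the controls. Mrpl34 fell from 23.6 ± 2.05 to 11.6 ± 0.588 RPKM (SD, n = 4 each), 49.3% of control (log2 fold change -0.96 ± 0.075 SE, limma adjusted p = 1.22e-05).

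Mrpl48, Mrpl38, Mrpl40 and Mrpl46 encode proteins of the central protuberance, the ridge of the large subunit that faces the small one. Mrpl48 had 9.99, 12.2, 11.4 and 12.0 RPKM in controls and 8.69, 8.98, 7.65 and 7.99 RPKM in knockouts, with no overlap. It fell from 11.4 ± 0.989 to 8.33 ± 0.615 RPKM (SD, n = 4 each; log2 fold change -0.41 ± 0.079 SE, limma adjusted p = 0.00287). The others of these 4 genes did not fall with it. Mrpl38 rose from 9.78 ± 0.471 to 11.9 ± 0.594 RPKM (SD, n = 4 each; limma adjusted p = 0.0112) and Mrpl46 was also higher, whereas Mrpl40 had a limma adjusted p of 0.340. These 4 genes therefore gave 2 higher and 1 lower, against 19.4% and 15.9% of all genes tested. Scaled by the sum over listed genes, none was higher and 1 was lower, against 12.4% and 30.2%. With that scaling the limma adjusted p was 0.198 for Mrpl38 and 0.170 for Mrpl46. The call of Mrpl46 held in only 1 of the 8 fits that left out 1 library.

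Mrpl44, which holds a ribonuclease III-like fold, had 3.97, 4.55, 3.93 and 5.59 RPKM in controls and 7.27, 5.87, 6.96 and 6.34 RPKM in knockouts. The highest control library came close to the lowest knockout library without overlap. It rose from 4.51 ± 0.772 to 6.61 ± 0.626 RPKM (SD, n = 4 each; log2 fold change 0.47 ± 0.10 SE, limma adjusted p = 0.00526). Mrpl1, the relative of the protein that forms the mobile L1 stalk in bacteria, was expressed at a low level throughout. It had 1.18, 1.85, 1.70 and 1.60 RPKM in controls and 2.47, 2.62, 2.29 and 2.21 RPKM in knockouts, and every knockout library was higher. Mrpl1 rose to 151% of control (log2 fold change 0.40 ± 0.089 SE, limma adjusted p = 0.00594).

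Mrpl45, whose product tethers the ribosome to the inner membrane, rose from 5.03 ± 0.722 to 7.03 ± 0.832 RPKM (SD, n = 4 each; limma adjusted p = 0.0112). Mrpl17, the relative of bacterial L17, rose by less, from 2.06 ± 0.0278 to 2.54 ± 0.0938 RPKM (SD, n = 4 each; limma adjusted p = 0.0131). Mrpl37 completes the 7 Mrpl genes that were higher.

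Mrpl42 had the second highest mean over all 8 libraries among the Mrpl genes, and its TMM-scaled levels were the most uniform of those printed here. It had 31.9, 33.2, 32.3 and 32.5 RPKM in controls and 25.4, 25.7, 25.1 and 25.02 RPKM in knockouts, a small gap but a complete one. Mrpl42 fell from 32.5 ± 0.549 to 25.3 ± 0.328 RPKM (SD, n = 4 each), 78.0% of control (log2 fold change -0.35 ± 0.057 SE, limma adjusted p = 0.00116). Falls of like size were seen for Mrpl4, the relative of bacterial L4, from 15.7 ± 1.13 to 12.3 ± 0.675 RPKM (SD, n = 4 each; limma adjusted p = 0.00597). Mrpl41 fell from 3.34 ± 0.189 to 2.62 ± 0.119 RPKM (SD, n = 4 each; limma adjusted p = 0.00714). With the library total alone none of these falls passed (limma adjusted p = 0.0980, 0.122 and 0.203 for Mrpl42, Mrpl4 and Mrpl41). Mrpl16, Mrpl23, Mrpl32 and Mrpl51 were also lower, so that 7 of the 48 Mrpl genes were higher and 9 lower (14.6% and 18.8%), with a median log2 fold change of -0.04.

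Mrpl10, Mrpl11 and Mrpl12 encode the stalk that recruits translation factors to the large subunit, and none of them passed the limma test at an adjusted p of 0.05. At an unadjusted p under 0.05, 1 of the 3 was lower, and limma voom on the recovered reads also called 1 lower. Of the 8764 genes tested, 1825 were lower at that unadjusted p and 1455 by limma voom. Mrpl12 had 28.6 ± 3.10 RPKM in controls and 26.6 ± 3.63 RPKM in knockouts (SD, n = 4 each; limma adjusted p = 0.485). The gene with the highest mean over all 8 libraries, Mrpl30, did not pass the test either, with 39.5 ± 4.01 and 37.0 ± 2.30 RPKM (SD, n = 4 each; limma adjusted p = 0.472). Nor did Mrps21, with 30.2 ± 4.63 and 35.3 ± 2.80 RPKM (SD, n = 4 each; limma adjusted p = 0.133), or Mrps16, with 22.7 ± 2.60 and 21.9 ± 1.28 RPKM (SD, n = 4 each; limma adjusted p = 0.698). The sign of Mrpl12, Mrpl30 and Mrps16 turned when libraries were scaled by their total alone. Mrps21 was called higher with that scaling (limma adjusted p = 0.0161) and against the median mitochondrial ribosomal protein gene (limma adjusted p = 0.0266). Mrpl30 was called lower with the sum over listed genes (limma adjusted p = 0.0361).

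Transcript levels differed widely between the genes of this one particle. The mean over all 8 libraries ran from 1.26 RPKM for Mrpl19 to 38.2 RPKM for Mrpl30, a ratio of 30.4, with a median of 7.78 RPKM. The 6 genes with the highest means over all 8 libraries, Mrpl30, Mrps21, Mrpl42, Mrpl12, Mrps16 and Mrps36, held 22.4% of the summed level. Mrps36 stood among them through its controls, at 27.0 RPKM against 12.4 RPKM in knockouts, where Mrps18b (21.7 RPKM) and Mrps7 (19.1 RPKM) were higher. Genes that were lower had a median level of 9.65 RPKM and those that were higher one of 6.89 RPKM, beside 7.65 RPKM for the genes that did not pass. Median gene-model lengths were 1007 bases for the lower, 1418 bases for the higher and 1028 bases for the remaining genes. The relation of level and length to the changes was not tested.

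The summed level of the 77 genes was 773 ± 64.5 TMM-scaled RPKM in controls and 741 ± 30.1 RPKM in knockouts (SD, n = 4 each), and the genotypes overlapped. Without TMM the order turned, with 726 ± 56.5 deposited RPKM in controls and 791 ± 54.0 in knockouts. As a share of all listed RPKM the sum was 0.853% ± 0.0395 in controls and 0.739% ± 0.0267 in knockouts, with no overlap. The direction of the sum thus depended on the reference against which it was set.

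The ratio of the summed Mrpl to the summed Mrps level needs no library scaling. It ran from 1.76 to 1.87 in controls and from 1.62 to 1.71 in knockouts, so the genotypes were apart. Its mean was 1.80 ± 0.0514 in controls and 1.67 ± 0.0366 in knockouts (SD, n = 4 each). The sums go by the gene names, so Mrps18a and Mrps36 count as Mrps genes. Whether other genes are also named for a subunit that does not hold their product was not examined. The ratio was also taken without the 9 genes, listed below, that kept their call under every scaling. It then ran from 2.11 to 2.25 in controls and from 2.08 to 2.16 in knockouts, and the genotypes overlapped. The difference between the median log2 levels of the Mrpl and the Mrps genes ran from 0.097 to 0.32 in controls and from 0.044 to 0.22 in knockouts, and on this measure the genotypes overlapped.

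The counts of higher and lower genes moved with the library scaling. Reads on listed genes were 17.1% to 20.1% of the library total in controls and 21.4% to 24.96% in knockouts. Scaled by the library total alone, 17 of the 77 genes were higher and 4 lower, against 31.9% and 7.17% of all genes tested (39.1% either way). With the sum over listed genes the split was 5 higher and 30 lower, against 12.4% and 30.2% (42.7% either way). Set against the median mitochondrial ribosomal protein gene of each library, 13 were higher and 9 lower, against 19.7% and 9.23% (29.0% either way). The median log2 fold change of all genes tested was 0.01 with TMM, 0.14 with the library total and -0.11 with the listed sum.

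**Figure D3:**
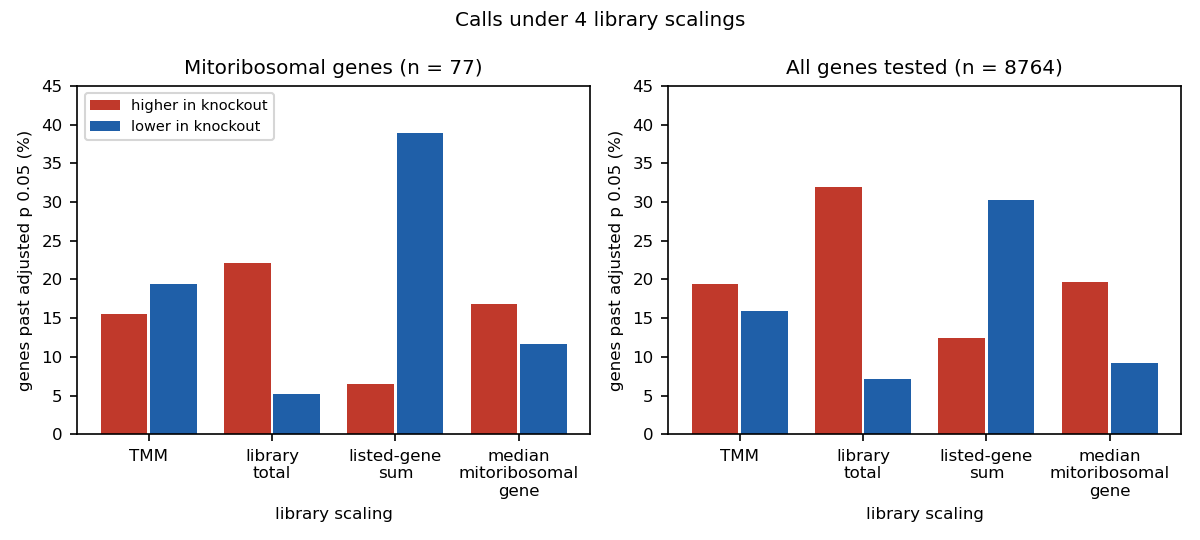
Percent of the 77 mitochondrial ribosomal protein genes (left) and of the 8764 genes tested (right) that were higher (red) or lower (blue) in the knockout at a limma adjusted p of 0.05, under 4 ways of scaling the libraries. In both panels the lower bar is tallest with the listed-gene sum, at 39.0% of the mitochondrial ribosomal protein genes and 30.2% of all genes, and shortest with the library total, at 5.19% and 7.17%.

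Under all 4 scalings 9 genes kept their call: Mrpl1, Mrpl44, Mrps7, Mrps18a and Mrps18b were higher, and Mrpl34, Mrpl48, Mrps6 and Mrps36 were lower. These 9 calls also held in each of the 8 fits that left out 1 library. Over all 27 calls, 8 of the higher and 12 of the lower ones held in each of those 8 fits. Mrpl32, Mrpl37, Mrpl46, Mrpl51, Mrps2, Mrps17 and Mrps22 lost theirs in at least 1. Of these, Mrpl46 kept its call in only 1 of the 8 fits, Mrpl32 in 2 and Mrpl51 in 4. Mrpl37 kept its call in 6 and Mrps2 in 7. Mrps17 lost its call in each fit without control replicate 11, 12 or 13 or knockout replicate 4 or 19. Mrps22 lost its call in each fit without control replicate 12 or 14 or knockout replicate 20. Without control replicate 13, 8 genes were higher and 19 lower, and the counts over all genes in that fit are not given here. In terms of single libraries under TMM, 10 genes had every knockout library above every control library and 16 had every one below, against 18.8% and 16.0% of all genes tested (34.8% either way).

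Reads of some of these genes can come from a neighbour, because the sources used here do not give the strand setting of the read counting. In the GENCODE annotation of GRCm38, 25 of the 77 genes share exon bases with another gene. Mrps18b shares 638 exon bases with the antisense gene Gm16279, and 63.7% of the 50-base words of its longest transcript also occur in transcripts of other genes. Mrps6 shares 159 bases with Slc5a3 on the same strand, an inositol transporter gene that fell too (log2 fold change -0.29, limma adjusted p = 0.00607). Mrpl48 shares 403 bases with Rab6a on the opposite strand, and Rab6a was also lower (log2 fold change -0.26, limma adjusted p = 0.0197). Mrps7 shares 127 bases with Gga3 and 119 bases with Mif4gd, neither of which was called (limma adjusted p = 0.0664 and 0.840). For Mrps36, 36.2% of the 50-base words are shared, most of them with the pseudogene Mrps36-ps1. Mrpl1, Mrpl34 and Mrps18a share none.

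Some of these genes start next to a gene that runs the other way. For 18 of the 77 genes, a protein-coding gene on the opposite strand started within 1000 bases upstream of the gene's own start. Neighbours that start downstream of it were not counted, and the share over all genes was not determined. For 11 of the 18 genes the neighbour was tested. In 4 of the 11 pairs neither gene passed the limma test, in 2 the mitochondrial ribosomal protein gene alone did, and in 3 the neighbour alone did. Mrpl51 and its neighbour Ncapd2, a condensin gene whose start lies 100 bases away, were both lower. Mrpl32 and Psma2, a proteasome gene whose start lies 75 bases away, went opposite ways (log2 fold change 0.27 for Psma2, limma adjusted p = 0.00586). Mrps18b starts 45 bases from Ppp1r10, a phosphatase regulator, which was not called (log2 fold change 0.33, limma adjusted p = 0.141). Eme2, which starts 29 bases from Mrps34, rose by 0.84 on the log2 scale (limma adjusted p = 0.000117) while Mrps34 did not pass.

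Promoter sequence from RefSeq was at hand for 68 of the 77 genes, covering the 250 bases before and the 50 bases after the start. Motifs of 4 factors known to act on genes of mitochondria were searched on both strands, and no matches of different motifs shared bases. The ETS motif CCGGAAG was found in 25 of the 68 genes, or 36.8%, and in 9.93% of all 27025 genes with such a window. The NRF1 motif GCGCATGCG was found in 7 of the 68 genes, or 10.3%, and in 1.95% of all genes. The YY1 motif AAGATGGCG was found in 8 of the 68 genes, or 11.8%, and in 1.64% of all genes. The ERR half-site AAGGTCA, a motif of the estrogen-related receptors, was found in 4 of the 68 genes, or 5.88%, close to the 5.38% of all genes. A match is a stretch of letters and not a site shown to be bound.

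The numbers of higher and lower genes with each motif were too small to compare. Of the 11 higher genes with a promoter sequence, 2 had the NRF1, 3 the ETS and 2 the YY1 motif. Of the 14 lower genes with one, 1 had the NRF1, 4 the ETS and 2 the YY1 motif. The ERR half-site was in none of the 11 higher genes and in 1 of the 14 lower genes, Mrps15. In the 250 bases printed above, Mrps7 and Mrps36 hold none of the 4 motifs.

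Mitochondrial translation also needs proteins outside the Mrpl and Mrps names. A chosen list held 76 symbols, some of them older names of a gene also listed by its newer name, and 66 were tested. Of these 66 genes 10 were higher and 13 lower, with a median log2 fold change of -0.08, shares of 15.2% and 19.7% beside the background of 19.4% and 15.9%. With the library total alone the split was 21 and 4, or 31.8% and 6.06% beside 31.9% and 7.17% of all genes tested. With the listed sum it was 5 and 27, or 7.58% and 40.9% beside 12.4% and 30.2%. None of the 6 further subunit genes passed the limma test, although 1 was higher at an unadjusted p under 0.05 and by limma voom. Of the 8764 genes tested, 2130 were higher at that unadjusted p and 1772 by limma voom.

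Of the 11 translation factors tested, 3 were lower (27.3%, against 15.9% of all genes tested) and none was higher (against 19.4%). With the listed sum 5 were lower, against 30.2%, and with the library total 1, against 7.17%. With TMM, at an unadjusted p under 0.05, or by limma voom, 4 were lower and none higher. Of the 8764 genes tested, 1825 were lower and 2130 higher at that unadjusted p, and 1455 and 1772 by limma voom. Tufm, the elongation factor that brings aminoacyl-tRNA to the ribosome, fell from 28.2 ± 1.44 to 20.5 ± 1.69 RPKM, 72.7% of control (SD, n = 4 each; limma adjusted p = 0.00132). Tsfm, its nucleotide exchange factor, fell from 5.03 ± 0.620 to 3.74 ± 0.315 RPKM (SD, n = 4 each; limma adjusted p = 0.0111). Gfm1, the elongation factor that moves the ribosome along the message, fell from 12.0 ± 0.683 to 9.62 ± 0.587 RPKM (SD, n = 4 each; limma adjusted p = 0.00715). All 3 genes act in the elongation cycle, and of them only Tufm stayed past the threshold with the library total (limma adjusted p = 0.0135, 0.0911 and 0.242 for Tufm, Tsfm and Gfm1).

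The aminoacyl-tRNA synthetases, which load tRNAs with amino acids, were counted together with the amidotransferase genes Qrsl1 and Gatc. This group split both ways, with 5 higher and 4 lower of 18 tested. The shares were 27.8% and 22.2%, beside 19.4% and 15.9% of all genes tested. The split was 8 and 1 with the library total (31.9% and 7.17% of all genes tested) and 3 and 9 with the listed sum (12.4% and 30.2%). Lars2, the mitochondrial leucyl-tRNA synthetase, fell from 6.98 ± 2.20 to 1.74 ± 0.326 RPKM, 24.9% of control (SD, n = 4 each; log2 fold change -1.51 ± 0.17 SE, limma adjusted p = 0.000137). Gars, which serves glycine in both the cytosol and mitochondria, rose from 9.04 ± 0.820 to 13.4 ± 0.506 RPKM (SD, n = 4 each; limma adjusted p = 0.000425). Ears2, the glutamyl-tRNA synthetase, rose from 0.923 ± 0.0943 to 1.35 ± 0.105 RPKM (SD, n = 4 each; limma adjusted p = 0.00755). By library, Lars2 had 5.06, 5.20, 9.48 and 8.17 RPKM in controls and 2.08, 1.95, 1.49 and 1.42 RPKM in knockouts, so the controls were spread widely but lay above every knockout library. Whether reads of repeated or ribosomal RNA-like sequence enter the count of this gene was not tested.

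Among 23 genes of ribosome assembly and ribosomal RNA modification, 5 were higher and 2 lower, or 21.7% and 8.70% beside 19.4% and 15.9% of all genes tested. The balance turned with the scaling, from 11 higher and 1 lower with the library total (31.9% and 7.17% of all genes tested) to 2 higher and 6 lower with the listed sum (12.4% and 30.2%). Ddx28, a helicase of large subunit assembly, rose from 1.76 ± 0.221 to 3.33 ± 0.616 RPKM (SD, n = 4 each; limma adjusted p = 0.000802), with 1 knockout library above the other 3. Eral1, a GTPase that binds the small subunit RNA, rose from 4.25 ± 0.632 to 5.97 ± 0.470 RPKM (SD, n = 4 each; limma adjusted p = 0.00586). Malsu1, a factor of large subunit assembly, fell from 5.76 ± 0.459 to 4.03 ± 0.689 RPKM (SD, n = 4 each; limma adjusted p = 0.00716).

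Of 8 genes of mitochondrial transcript stability and translational activation, 4 were lower and none was higher, against 15.9% and 19.4% of all genes tested. The counts were the same at an unadjusted p under 0.05 and by limma voom. Of the 8764 genes tested, 1825 were lower and 2130 higher at that unadjusted p, and 1455 and 1772 by limma voom. Cox14, an assembly factor of cytochrome c oxidase, fell from 22.8 ± 2.29 to 14.9 ± 0.718 RPKM (SD, n = 4 each; limma adjusted p = 0.000401). Taco1, which activates translation of the first subunit of that oxidase, fell from 6.05 ± 0.497 to 4.44 ± 0.644 RPKM (SD, n = 4 each; limma adjusted p = 0.00934). Supv3l1, an RNA helicase of mitochondrial RNA turnover, fell from 5.46 ± 0.678 to 4.06 ± 0.441 RPKM (SD, n = 4 each; limma adjusted p = 0.0149). Scaled by the library total, 1 of the 8 was lower, against 7.17% of all genes tested, and with the listed sum 5 were, against 30.2%.

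**Figure D4:**
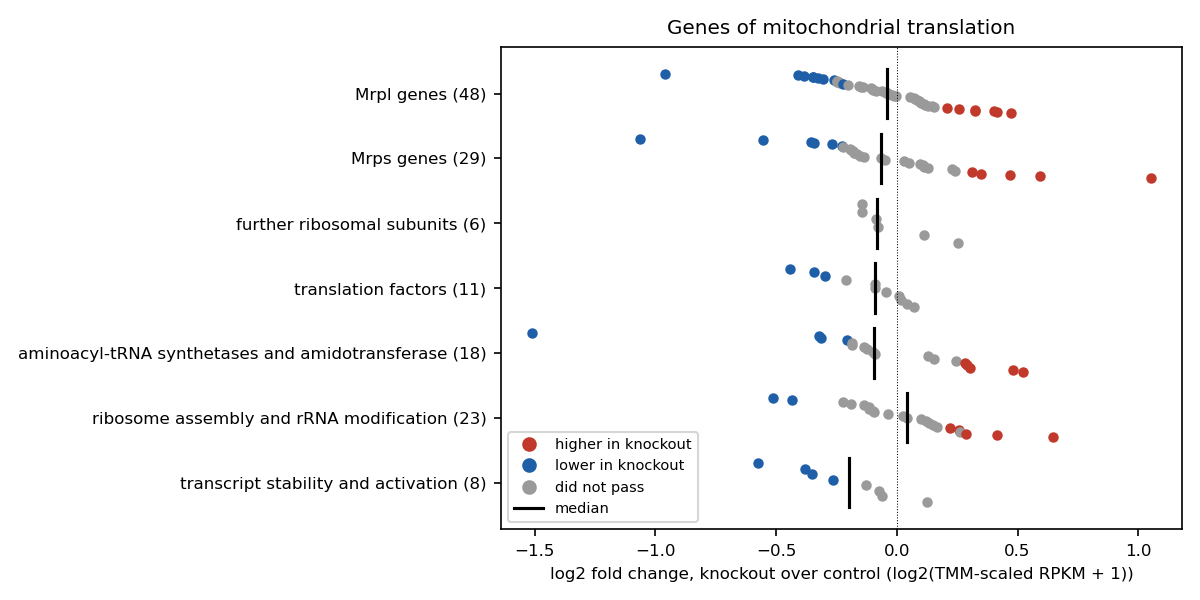
Log2 fold change of knockout over control for each tested gene of mitochondrial translation (points, 4 libraries per genotype) in 7 groups, with each group's median as a black bar; red points were higher, blue points lower, and grey points did not pass the limma test. Higher and lower genes stand side by side among the Mrpl and Mrps genes and the synthetases, while the translation factors and the transcript stability genes hold only lower calls, with Lars2 farthest left at -1.51.

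Counts for 2 other gene groups of the same libraries are set beside these values. Of 82 cytosolic ribosomal protein genes, 25 were higher and 2 lower, against 19.4% and 15.9% of all genes tested, with a median log2 fold change of 0.17. Of 37 nuclear genes with Nduf symbols, named for subunits of respiratory complex I, 26 were lower and none was higher, with a median of -0.34. At an unadjusted p under 0.05, 27 were lower and none higher, and likewise by limma voom. Of the 8764 genes tested, 1825 were lower and 2130 higher at that unadjusted p, and 1455 and 1772 by limma voom. With the library total the counts were 57 higher and none lower for the cytosolic ribosomal protein genes. They were 3 higher and 13 lower for the Nduf genes, against 31.9% and 7.17% of all genes tested. With the listed sum the counts of the 2 groups were 5 and 8, and none and 33, against 12.4% and 30.2%. The median of the mitochondrial ribosomal protein genes, -0.05, lay between those of the other groups, and the differences between the groups were not tested.

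Some markers of cell types also differed between the genotypes. Among all genes tested 19.4% were higher and 15.9% lower, and the marker counts stand beside these shares. All 9 listed macrophage markers were higher in the knockout, and their summed level was 40.9 to 53.7 RPKM in controls and 83.3 to 98.9 RPKM in knockouts. Adipocyte markers summed to 2133 to 2299 RPKM in controls and 4226 to 5311 RPKM in knockouts, and 3 of the 5 were higher. All 7 brown adipocyte markers passed the filter on the mean level, 2 of them higher (Cidea and Elovl3, the latter near 0 in controls) and 3 lower (Ucp1, Cox7a1 and Ppargc1a). Ucp1 fell from 158.9 ± 40.3 to 4.01 ± 2.90 RPKM (SD, n = 4 each; log2 fold change -5.11, limma adjusted p = 3.65e-06), the lowest log2 fold change of the 8764 genes tested. The summed level of the 7 was 1184 to 1516 RPKM in controls and 1004 to 1172 RPKM in knockouts. Among 4 fibroblast markers 2 were higher, with sums of 42.5 to 65.6 RPKM in controls and 56.2 to 94.0 RPKM in knockouts. Of 4 endothelial markers 1 was lower, with sums of 49.3 to 66.1 and 45.3 to 56.9 RPKM, as was 1 of 2 tested nerve and Schwann cell markers, with sums of 6.16 to 14.4 and 2.29 to 3.35 RPKM. Of the skeletal muscle markers Acta1, Ckm, Myh4 and Tnnt3 were not listed, and Mb did not pass the test. The 3 blood markers did not pass it either, and no lymphocyte marker reached 1 RPKM. The part of any of these cell types in the changes of the mitochondrial ribosomal protein genes was not tested.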

How the data were processed

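RNA was total RNA depleted of ribosomal RNA before library preparation, per the labels. The authors deposited RPKM values per gene and library, together with log2 fold changes and p-values with false discovery rates, per the file headers. TopHat2, featureCounts, edgeR and the mouse build mm9 are named in the submitters' processing notes, without versions, and the sources used here do not give the strand setting of the counting. No deposited expression column was left without a sample. Dividing the RPKM by the value of 1 read gave whole reads for 100% of values (within 0.001 reads), and these gave the depths.

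Genes whose mean RPKM was 1 or more were kept, scaled by TMM (trims 0.3 and 0.05), transformed as log2(RPKM + 1) and tested for knockout against control with limma 3.58.1 (trend, Benjamini-Hochberg, adjusted p of 0.05) in R 4.3.3, and tables were made with Python 3.11.15. The test was checked on simulated data, where it called 9.72% of genes changed 1.5-fold, 46.6% changed 2-fold and 100% changed 4-fold. It called 0.105% of the unchanged genes. Genes that did not pass are therefore not shown to be unchanged. The simulation changed few genes and used 1 setting of spread, so its rates need not hold for these data. The members and gene lists were chosen with earlier results of these data known. Genes were named with values where the call held with TMM, the library total and the listed sum, where they had 1 of the 8 smallest adjusted p per direction, or where they were among the 3 highest levels of each subunit; each further list gave up to 3 genes by adjusted p. Single-library values are given for the calls that held under every scaling and for the 2 smallest adjusted p per subunit and direction. Alternatives were other scalings, a pseudocount of 0.1, no filter, a CPM filter (above 1 in 4 libraries), a log2 fold change of at least 0.5, limma voom on the recovered reads, and leaving out each library. Sequence came from RefSeq and exon overlap from GENCODE, both on GRCm38, matched by symbol.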

Additional observations from a re-analysis of the deposited data

Results flagged for a closer look

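Of 66 groups of 4 libraries examined with Dixon's test, 1 held a library far from the others, where chance would give about 3.3. Ddx28, a helicase of mitochondrial ribosome assembly, had 4.25 TMM-scaled RPKM in knockout replicate 4 and 2.94 to 3.14 RPKM in the other knockout libraries. Its rise held in every fit that left out 1 library.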

How the results depend on the processing

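Scaling and a minimum fold moved the counts most. Under TMM the counts of higher and lower genes were 12 and 15 for the 77 mitochondrial ribosomal protein genes, 7 and 9 for the Mrpl genes, 5 and 6 for the Mrps genes, and 10 and 13 for the further translation genes. Of all genes tested, 19.4% were higher and 15.9% lower. With the library total alone the lower counts became 4, 2, 2 and 4, and the higher counts of the Mrps genes and the further genes 8 and 21. With that scaling 31.9% of all genes tested were higher and 7.17% lower. With the sum over listed genes the higher counts became 5, 2, 3 and 5 and the lower counts 30, 18, 12 and 27. All genes tested moved in the same direction, to 12.4% higher and 30.2% lower. Against the median mitochondrial ribosomal protein gene, 9 of the 77 and 2 of the Mrps genes were lower, beside 9.23% of all genes tested. These settings multiply all RPKM of a library by 1 factor, and the cause of the differences between scalings was not tested. With a log2 fold change of at least 0.5, a stricter rule by construction, the higher counts were 2, 0, 2 and 2. The lower counts were 3, 1, 2 and 3. The count over all genes for that rule is not given here. With that fold limma voom called 2 Mrpl genes higher, against 1012 of the 8764 genes tested. An unadjusted p under 0.05 with that fold called 0 Mrpl genes higher, against 721.

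Of the 32 single genes followed, all kept direction and call with RLE size factors, the CPM filter, no filter, a pseudocount of 0.1 and limma voom. Other settings cost calls: 9 of the 32 genes lost theirs with the library total alone and 3 with the sum over listed genes. Against the median mitochondrial ribosomal protein gene 3 lost it. Under each of these scalings 1 gene gained a call. The minimum log2 fold change of 0.5 took the call from 19. With the library total alone the log2 fold change turned positive for Mrpl12 (0.071), Mrpl30 (0.090) and Mrps16 (0.13), and that of Mrps16 was 0.016 against the median gene and ran from -0.12 to 0.0080 with 1 library left out, positive without control replicate 12; none of these passed the test under TMM. Leaving out 1 library gave 8 to 12 higher and 12 to 19 lower of the 77 genes, and 3 to 6 higher Mrps genes, the 3 without control replicate 13. The counts over all genes in those fits are not given here. No paired analysis was possible because the genotypes share no replicate number. Depth limits the low genes: single genes held as few as 33 reads in a library.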
